A study of Mus musculus with 7 samples.

Results

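The regions described here are the places near gene starts where BMAL1 was found on chromatin of mouse gastrocnemius in both replicate libraries. Overlapping BMAL1 peaks of the 2 libraries were merged, and a region was kept if it held a peak of each. A region was counted as a member if its midpoint lay at most 10000 bp from the nearest transcription start site (TSS) of a protein-coding gene (mm10). Of 2742 BMAL1 regions, 578 (21.1%) were members and 2164 lay farther away. The stretches within 10 kb of such a TSS made up 17.1% of the chromosome sequence. Members lay within the limit of 652 of 21853 protein-coding genes (2.98%). Of the members, 481 had 1 such gene within 10 kb and 97 had 2 or more.

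Chromatin immunoprecipitation followed by sequencing was performed on gastrocnemius, a calf muscle, of wild-type C57BL/6J males aged 5 months. BMAL1 was precipitated at Zeitgeber time 4 (ZT4, 4 h after lights on), RNA polymerase II (RNAP2) also at ZT4, and REV-ERBα at ZT8, with 2 libraries for each, and an input library was labelled ZT4. The tissue was whole muscle, so that signal of fibres and of other cells was pooled, and fewer cells of a type cannot be told apart from less binding per cell. All animals had the same genotype, and peaks in an animal lacking BMAL1 were not analysed here.

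BMAL1 pairs with CLOCK to form the activator of the circadian clock, which binds E-boxes, short palindromic elements whose canonical letters are CACGTG. Its targets include the genes of its own repressors, PER, CRY, CIART and the REV-ERBs, and those of the PAR bZIP factors DBP and TEF, and this feedback is what makes the clock cycle. REV-ERBα, encoded by Nr1d1, is a nuclear receptor that represses transcription, and RNAP2 marks genes engaged by the transcription machinery.

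The sequences below show what lay under the strongest members. Members were ranked by the lower of the −log10 p values of their strongest peak in the 2 BMAL1 libraries, and the first 30 were read for CACGTG, on either strand, within 100 bp of a summit (the position of highest signal in a peak). Of these 30, 13 held it, and all but 1 of them are printed. Each line gives the nearest gene, and the window is written 5′ to 3′ on that gene's strand with CACGTG in capitals. The variant CACGTT is also in capitals, and where it lay on the opposite strand it reads AACGTG. Sequences are from GRCm38.p6, which is mm10.

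Ciart (chr3:95882254-95882313, minus strand): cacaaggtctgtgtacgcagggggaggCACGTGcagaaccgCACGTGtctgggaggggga
Per1 (chr11:69094856-69094915, plus strand): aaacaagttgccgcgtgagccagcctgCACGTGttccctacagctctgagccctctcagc
Nr1d1, upstream (chr11:98783515-98783574, minus strand): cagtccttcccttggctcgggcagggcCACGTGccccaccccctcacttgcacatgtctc
Nr1d1, intron (chr11:98773832-98773891, minus strand): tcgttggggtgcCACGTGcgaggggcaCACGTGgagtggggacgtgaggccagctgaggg
Tef (chr15:81811042-81811071, plus strand): ctgctgccgctcCACGTGaccctcggggct
Dbp, intron (chr7:45707685-45707744, plus strand): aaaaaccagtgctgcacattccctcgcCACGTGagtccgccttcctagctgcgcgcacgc
Gm42791 (chr5:148995209-148995268, minus strand): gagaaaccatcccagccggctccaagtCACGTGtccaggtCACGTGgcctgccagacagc
Nr1d2 (chr14:18238543-18238602, minus strand): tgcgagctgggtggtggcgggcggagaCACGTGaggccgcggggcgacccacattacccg
Cry1 (chr10:85185082-85185141, minus strand): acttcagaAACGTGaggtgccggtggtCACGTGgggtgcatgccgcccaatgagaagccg
Coq10b (chr1:55052665-55052724, plus strand): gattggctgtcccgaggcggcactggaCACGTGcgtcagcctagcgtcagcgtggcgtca
Bhlhe41 (chr6:145855864-145855923, minus strand): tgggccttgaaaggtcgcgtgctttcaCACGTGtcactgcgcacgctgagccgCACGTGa
Adh5 (chr3:138442760-138442819, plus strand): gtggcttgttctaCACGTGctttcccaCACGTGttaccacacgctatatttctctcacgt

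Another 2 of the 30 had no CACGTG in that window but did have CACGTT, and they are shown because both belong to core clock genes. This pair was chosen after the values were seen.

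Per2 (chr1:91459302-91459331, minus strand): agcgcgcgcggtCACGTTttccactatgtg
Nr1d1, TSS (chr11:98775373-98775432, minus strand): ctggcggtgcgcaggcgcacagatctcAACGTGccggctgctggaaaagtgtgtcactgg

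The repeated element was close to both summits in many of these regions. At Per1 the printed E-box lay 9.5 bp from the summit of replicate 1 and 14.5 bp from that of replicate 2, and 332 bp from the TSS. At the upstream Nr1d1 region the distances from the summits were 12.5 and 55.5 bp, and the element was 8211 bp from the TSS. At Nr1d2 they were 35.5 and 0.5 bp, with 3 copies of CACGTG within 100 bp of a summit, as many as at Ciart. Gm42791, a predicted gene on chromosome 5, had 2 E-box-like elements (CACGTG or CACGTT) separated by 7 bases. It was the sole member with such a pair, spaced by 6 or 7 bases, within 100 bp of a summit. That is 0.173% of members, beside 3 of 2742 BMAL1 regions (0.109%), 2 of them over 10 kb from a TSS. Such a pair was present in 0.00736% of 54327 windows of the same length centred on protein-coding TSSs, or 4 windows. The PCR amplicons used for Per1 and Nr1d1 enhancers lay inside the Per1 member and the upstream Nr1d1 member, as found by matching both primers of each pair to the members' sequence. The centre of the Per1 amplicon was 78 bp from the summit of replicate 1 and 54 bp from that of replicate 2, and the centre of the Nr1d1 amplicon was 58 bp from the summit of replicate 1 and 101 bp from that of replicate 2.

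The first 4 ranks were held by regions of Ciart, Per1 and Nr1d1, genes of clock repressors. All values that follow are −log10 p of the strongest overlapping peak against input as MACS2 gave it, so that 2 stands for a p-value of 0.01 and larger values are stronger. At Ciart, which encodes a repressor of CLOCK and BMAL1, the region of 1147 bp upstream of the TSS reached 24.05 in BMAL1 replicate 1 and 21.7 in replicate 2. The same region held REV-ERBα peaks of 9.55 and 15.9 and RNAP2 peaks of 9.34 and 2.86, so that it was present in all 6 lists. At Per1 the BMAL1 values were 36.5 and 21.2, the highest replicate 1 value of all members, with REV-ERBα peaks of 4.27 and 6.33 and RNAP2 peaks of 12.4 and 14.8. Both genes were far above the median member, which was 2.48 in replicate 1 and 2.40 in replicate 2.

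The ratio of the replicates' values was larger at the other Per genes than at Per1. Per2 had a BMAL1 value of 20.5 in replicate 1 and 5.68 in replicate 2. REV-ERBα reached 7.49 and 16.3 there, and RNAP2 7.49 in replicate 1, with no peak listed in replicate 2. At Per3 BMAL1 gave 16.6 and 7.30, REV-ERBα 3.48 and 3.84, and RNAP2 13.4 and 9.43. Neither region held CACGTG within 100 bp of a summit. Cry1, whose protein acts with the PER proteins, gave 15.4 and 8.56 for BMAL1, and 11.8 for REV-ERBα in replicate 2 alone. In all 3 regions the BMAL1 value of replicate 1 was the higher.

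Nr1d1 had 3 members. The upstream region, whose midpoint was 8089 bp before the TSS, reached 20.4 and 31.6, the highest replicate 2 value of all members. The intronic region, 1691.5 bp downstream, reached 16.01 and 14.6. The region at the TSS itself, 155 bp away, was the weakest of the 3, with 7.90 and 7.66. REV-ERBα was listed in both replicates at the intronic region, with 6.24 and 5.39. In the other 2 it was listed in 1 replicate, with 3.16 at the upstream region and 1.83 at the TSS. REV-ERBα is the product of this gene. Nr1d2, which encodes REV-ERBβ, had 1 member at 28.1 and 8.80, with REV-ERBα at 10.8 and 7.01 and RNAP2 at 19.6 and 21.1.

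The PAR bZIP genes, whose factors carry the rhythm to metabolic genes, were also among the strongest. Tef, ranked 5, gave 30.7 and 12.0 at its TSS, with REV-ERBα at 14.5 and 16.1 and RNAP2 at 22.5 and 15.5. Dbp had a member in an intron with 14.1 and 9.72 and one at the TSS with 15.1 and 8.25. The intronic region was 611 bp wide and had CACGTG at both summits, and the one at the TSS was 2417 bp wide and had none. REV-ERBα was the stronger at the TSS, with 9.78 and 20.2 against 4.21 and 4.67 in the intron. Both members overlapped the same RNAP2 peaks, 32.2 and 14.5.

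The genes of the E-box repressors DEC1 and DEC2 also had members. Bhlhe40 (DEC1) gave 11.0 in replicate 1 but 3.36 in replicate 2. For Bhlhe41 (DEC2) the region at the TSS gave 6.71 and 1.83, with REV-ERBα at 5.84 and 5.65 and RNAP2 at 10.3 and 11.9. A second region 9185 bp downstream gave 7.11 and 5.22 and was in neither of the REV-ERBα lists nor in those of RNAP2. It held 4 copies of CACGTG. Clock itself had a weak member of 2.995 and 2.15, with no peak in the other 4 lists and no CACGTG at a summit.

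**Figure D1:**
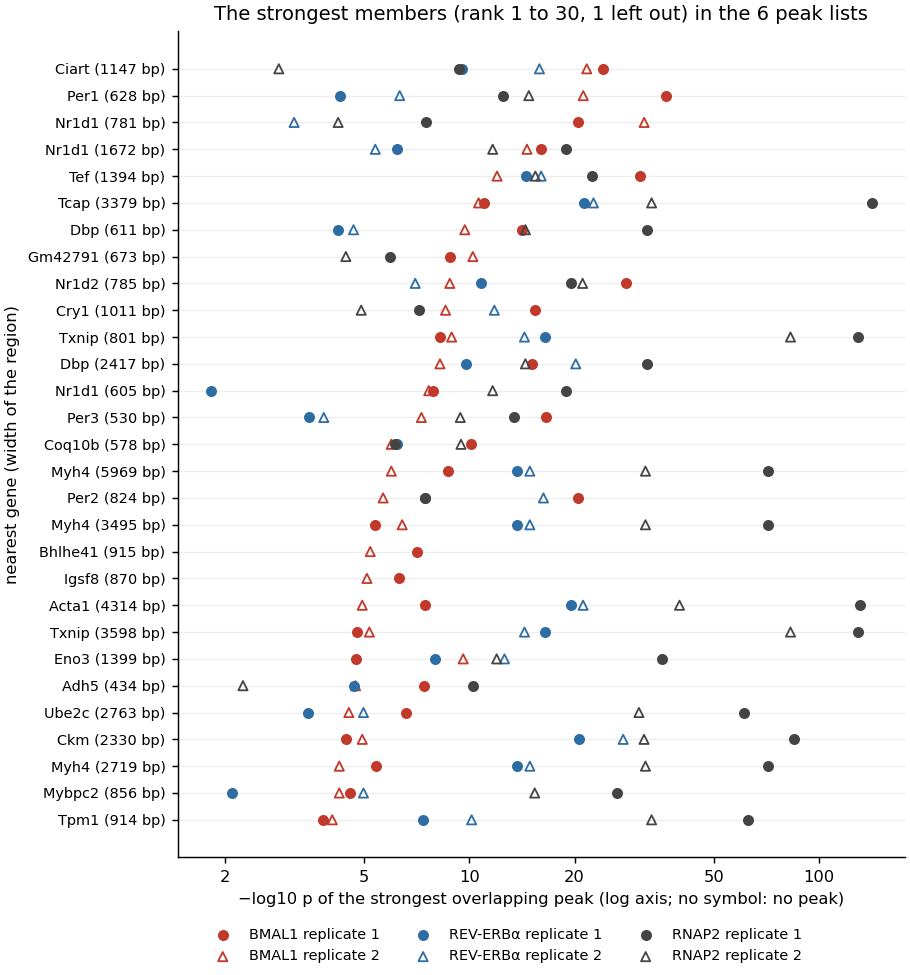
The 30 strongest members from top to bottom, with 1 of them left out (nearest gene and width of the region) and the −log10 p of the strongest overlapping peak in each of the 6 lists on a log axis. Filled circles are replicate 1 and open triangles replicate 2, in red for BMAL1, blue for REV-ERBα and dark grey for RNAP2, and a missing symbol means that no peak was listed. Clock gene regions fill most of the upper rows with BMAL1 values up to 36.5, and the RNAP2 values are highest at Tcap (141) and Acta1 (131) in replicate 1 and at the Txnip regions (82.8) in replicate 2.

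A second kind of strong member lay on genes of the contractile apparatus. Tcap, which encodes the titin cap of the Z-disc, ranked 6 with BMAL1 at 11.0 and 10.6 over 3379 bp, and here REV-ERBα (21.2 and 22.7) and RNAP2 (141 and 33.2) were stronger than BMAL1 in each replicate. The summits of its 2 BMAL1 peaks were 1634 bp apart. Myh4, the gene of fast myosin heavy chain IIb, had 3 members side by side, 5969, 3495 and 2719 bp wide, with BMAL1 values of 8.68 and 5.99, 5.38 and 6.43, and 5.42 and 4.25. All 3 overlapped the same REV-ERBα peaks (13.7 and 14.9) and the same RNAP2 peaks (71.3 and 31.9), so that they are not independent of each other.

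At some other muscle genes too, REV-ERBα and RNAP2 had higher values than BMAL1. Medians over all members with such regions, muscle genes or not, went the same way. Where an RNAP2 region overlapped (90 members), BMAL1 medians were 3.54 and 2.98, beside RNAP2 medians of 17.5 and 10.5. Where a REV-ERBα region did (70 members), BMAL1 medians were 3.58 and 2.98, beside REV-ERBα medians of 6.03 and 6.33. Over the 17 members near core clock genes, BMAL1 medians were 15.4 and 8.25. Those with a peak had RNAP2 medians of 13.4 and 11.8 and REV-ERBα medians of 7.09 and 7.16. Values of different antibodies were not brought to one scale, so no conclusion about muscle genes is drawn from their order. At Acta1, skeletal actin, BMAL1 gave 7.45 and 4.95 over 4314 bp, beside REV-ERBα at 19.6 and 21.2 and RNAP2 at 131 and 39.9. At Ckm, muscle creatine kinase, BMAL1 gave 4.45 and 4.95, beside REV-ERBα at 20.5 and 27.5 and RNAP2 at 84.5 and 31.6. The region whose nearest TSS was that of Ube2c also lay within 10 kb of Tnnc2, fast troponin C, and gave 6.60 and 4.53 for BMAL1 beside 60.9 and 30.6 for RNAP2. REV-ERBα reached 3.47 and 4.99 there, which was below BMAL1 in replicate 1. Atp2a1, the calcium pump of fast fibres, had 3 members, the strongest with 5.38 and 3.60 over 5635 bp. Tpm1, tropomyosin, had 6 members, the most of any gene, with lower values between 1.87 and 3.82. Ttn, the giant sarcomere spring, had 5, with lower values between 1.87 and 2.40 and, apart from 1.99 in replicate 2 at one of them, no RNAP2 peak. A gene with several members is 1 gene and not several observations.

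Among the 30, the 13 members with CACGTG at a summit and the 17 without it differed in shape. Those with the element were 434 to 1672 bp wide with a median of 781 bp, and the median distance between the summits of the replicates was 34 bp. Those without it were 530 to 5969 bp wide with a median of 2330 bp, and their median summit distance was 92 bp. RNAP2 replicate 1 had a median of 9.79 over the 12 members with the element that held a peak, and of 66.9 over the 16 without it. REV-ERBα replicate 1 had medians of 6.23 over 8 and 11.7 over 16. Regions at least 2000 bp wide, a limit chosen after the values were seen, numbered 0 of 13 and 9 of 17. Of the 13, 9 held the element at both summits, which itself favours short distances between the summits. These are descriptions of regions picked for their strength, with no test.

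Genes outside the clock and the sarcomere were also among the 30. Txnip, which encodes the thioredoxin-interacting protein that limits glucose uptake, had a member 4346 bp downstream with 8.25 and 8.91 and another with 4.78 and 5.18, both in the same strong RNAP2 peaks (129 and 82.8) and REV-ERBα peaks (16.4 and 14.4). Coq10b, which encodes a coenzyme Q-binding protein, gave 10.1 and 5.99, and Adh5, the formaldehyde and nitrosoglutathione dehydrogenase, 7.43 and 4.74. Eno3, muscle enolase, gave 4.74 and 9.61 with no CACGTG at a summit. Igsf8, a membrane protein of the immunoglobulin family, gave 6.31 and 5.10 and, apart from the distal Bhlhe41 region, was the sole member of the 30 with BMAL1 peaks alone.

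Most members were far weaker than these. In both libraries, 45 of 578 members reached a −log10 p of 3, 7.79%, where over all 2742 BMAL1 regions the share was 3.1% and over those beyond 10 kb it was 1.85%. A −log10 q of 1.3, which stands for a false discovery rate of 0.05, was reached in both libraries by 15 members, 2.6%, beside 0.802% over all regions. Of the 15, 11 lay near genes of the core clock list. Taken singly, 92 peaks of BMAL1 replicate 1 and 36 of replicate 2 passed this q, and 29 and 18 of them lay in members. The 578 members had 128 distinct lower values, and 109 members shared the single value 1.87. The deposited lists give no reads per peak, so that the depth behind each value is unknown.

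**Figure D2:**
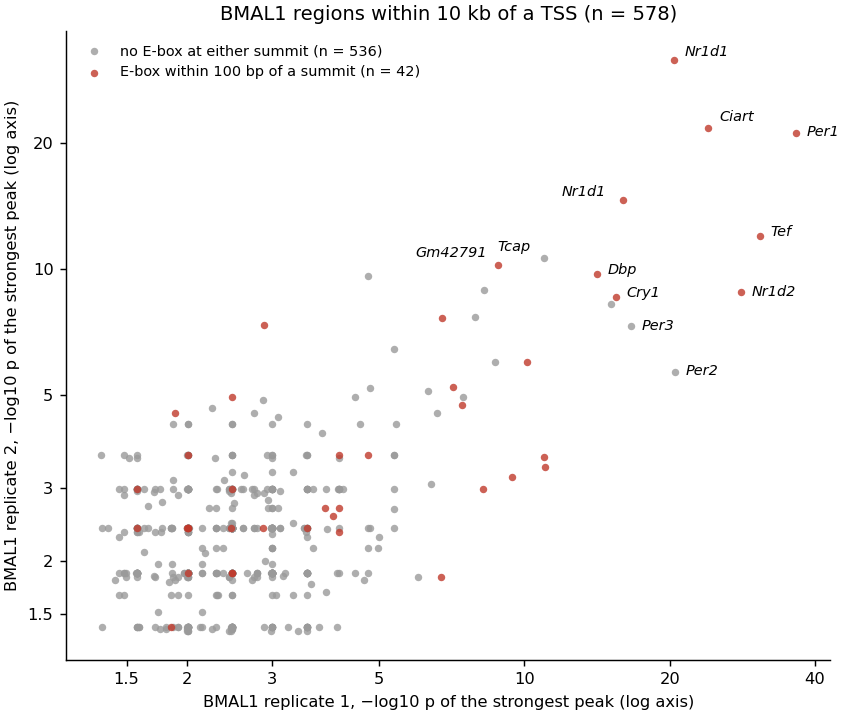
Each point is 1 of the 578 members, placed by the −log10 p of its strongest BMAL1 peak in replicate 1 (x) and replicate 2 (y), both on log axes; red points have the E-box CACGTG within 100 bp of a summit (n = 42). Clock genes stand at the upper right, and the bulk forms a grid of tied values below about 5 in which the replicates do not rise together.

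Over all members the 2 libraries ranked the regions alike only weakly. Spearman's rho between the 2 libraries was 0.224 over the 578 members, 0.0797 over the 2164 farther regions and -0.136 over the members ranked below 100. These are correlations across regions of 2 libraries, given as a description, and the last of them is over members picked by the lower of the same values. Summits of the 2 libraries lay within 100 bp of each other in 145 members (25.1%) and in 456 farther regions (21.1%), and the median distance was 242 bp and 246 bp. Within the first 30 the median was 66.5 bp.

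Strength varied with the distance from the TSS. Of the 94 members within 1 kb, 17 (18.1%) reached a −log10 p of 3 in both libraries. Between 1 and 5 kb it was 20 of 252 (7.94%), and between 5 and 10 kb 8 of 232 (3.45%). The medians did not follow, since replicate 1 had 2.48 in each of the 3 classes and replicate 2 had 2.40, 2.40 and 2.28. The difference was thus in the upper tail. Members lay upstream of their nearest TSS in 249 cases and downstream in 329. By the summit of replicate 1, 95 were within 1 kb of a TSS, 45 in an exon, 294 in an intron and 144 between genes, and by that of replicate 2 90, 42, 305 and 141.

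Regions on either side of the 10 kb limit were weak. Just inside it lay regions near Atf7ip (9984 bp from the TSS, with BMAL1 at 2.01 and 2.40), Unc5a (9977 bp, 2.995 and 3.53) and Lars (9972 bp, 2.48 and 2.98). Just outside lay regions near Trpm1 (10047.5 bp, 2.01 and 4.25), Dab1 (10056.5 bp, 3.54 and 1.87) and Dtx3l (10090 bp, 2.45 and 2.98).

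A REV-ERBα region, that is, one with peaks in both REV-ERBα libraries, overlapped 70 of the 578 members, or 12.1% (95% exact Clopper-Pearson interval 9.56 to 15.1). Over all 2742 BMAL1 regions the share was 4.3%, and over the regions beyond 10 kb 2.22%. The share rose with strength, from 32 of the 478 members ranked below 100 through 17 of the 70 ranked 31 to 100 to 21 of the first 30. It also rose towards the TSS, from 14 of 232 between 5 and 10 kb to 24 of 94 within 1 kb. BMAL1 was taken at ZT4 and REV-ERBα at ZT8, so that an overlap is of place and not of time.

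An RNAP2 region overlapped 90 members, or 15.6% (12.7 to 18.8), where over all BMAL1 regions the share was 4.38% and beyond 10 kb 1.39%. It was 42 of 478 in the weakest class, 21 of 70 in the middle one and 27 of the first 30. Within 1 kb of a TSS 43 of 94 had one. RNAP2 regions themselves lay within 10 kb of a TSS in 66.3% of cases, and REV-ERBα regions in 47.4%. The intervals cover counting error only, and neighbouring regions are not independent. All 12 skeletal muscle fibre markers had an RNAP2 region within 1 kb of a TSS, as had 3 of 6 fibroblast markers. So had 1 of 6 leukocyte and 1 of 6 adipocyte markers, and none of the 8 endothelium, 8 hepatocyte or 4 satellite cell markers. The share over all protein-coding genes is not given here, so these counts have no background beside them.

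REV-ERBα and RNAP2 shared most of their members. Of the 70 members with a REV-ERBα region, 58 also had an RNAP2 region. A peak in all 6 lists was found in 57 members (9.86%) and in 20 of the farther regions (0.924%). At the other end, 380 members (65.7%) and 1730 farther regions (79.9%) had a peak in the BMAL1 lists alone. Members with both regions had a median width of 1168 bp, against 720 bp for the 476 with neither.

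**Figure D3:**
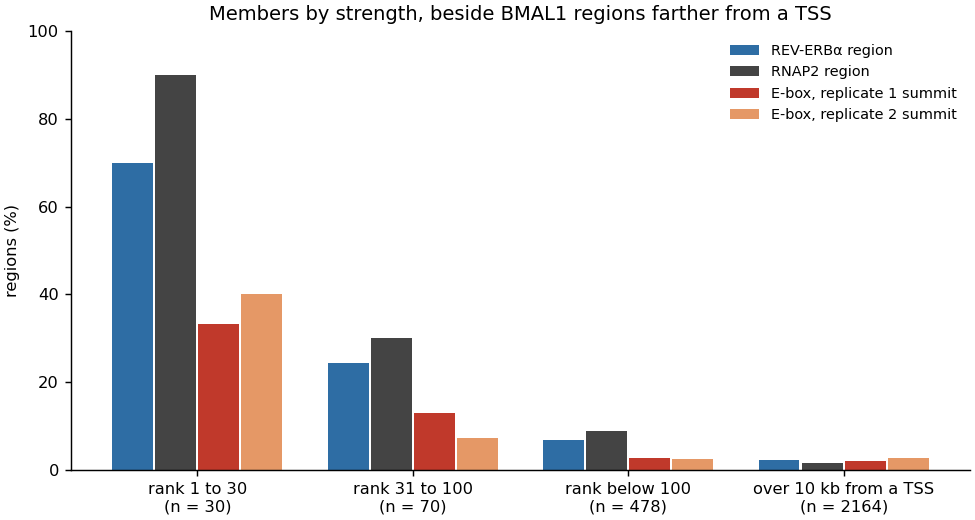
Share of regions (%, y axis from 0 to 100) that overlapped a REV-ERBα region (blue) or an RNAP2 region (dark grey) or held the E-box CACGTG within 100 bp of the summit of BMAL1 replicate 1 (red) or 2 (orange), for members of rank 1 to 30, 31 to 100 and below 100 and for the 2164 BMAL1 regions over 10 kb from a TSS. All 4 shares fall from left to right across the 3 classes of members, RNAP2 from 27 of 30 to 42 of 478.

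CACGTG lay within 100 bp of the summit of BMAL1 replicate 1 in 32 members, or 5.54% (3.82 to 7.73), beside 2.66% over all BMAL1 regions, and of replicate 2 in 29, or 5.02% (3.39 to 7.13), beside 3.06%. Windows of the same length 2000 bp to either side of these summits held it in 1.3% and 1.99% of cases. At the farther regions it was 1.89% and 2.54% at the summits and 1.55% and 1.57% in their flanks. Windows of the same length centred on all 54327 protein-coding TSS positions held it in 5.07%, near the share over all members. Members lay a median of 3951.5 bp from their nearest TSS, so these windows are not matched to them in position. In the 94 members within 1 kb of a TSS the share with CACGTG was 17% and 16%.

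The element was gathered in the strong members. Among the first 30, 10 held it at the summit of replicate 1 and 12 at that of replicate 2, with 1 of 60 flanks for each. Among those ranked 31 to 100, 9 and 5 of 70 held it, and among the 478 below, 13 and 12, or 2.72% and 2.51%, beside 1.36% and 2.09% of their flanks. Members with the element at both summits numbered 19, or 3.29%, and at least one summit had it in 42. The 19 had a median of 28 bp between the summits, 638 bp of width and a GC content of 66.2% in the window of replicate 1, where the 536 members with the element at neither summit had 248.5 bp, 747 bp and 41.3%. The 19 were picked for CACGTG within 100 bp of both summits, which itself favours short distances between the summits. The part of GC content in the count of E-boxes was not tested.

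Over all members, the other hexamers were no more frequent at the summits than at TSSs. CACGTT lay near 17 summits of replicate 1 and 18 of replicate 2 (2.94% and 3.11%), with 2.6% in the flanks of each and 3.3% at TSSs. It too was more frequent in the strongest members, with 3 and 5 of the first 30 (10% and 16.7%) beside 0 and 2 of 60 flanks, 2 and 2 of the 70 ranked 31 to 100, and 12 and 11 of the 478 below (2.51% and 2.3%). CAGCTG, the letters of an E-box that myogenic factors such as MyoD bind, lay near 50 and 46 (8.65% and 7.96%), with 8.91% and 9.43% in the flanks and 12.5% at TSSs. Among the first 30 it lay near 0 and 3 summits (0% and 10%), beside 8 and 10 of 60 flanks (13.3% and 16.7%). Each was searched on both strands, and no match of one can overlap a match of another.

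**Figure D4:**
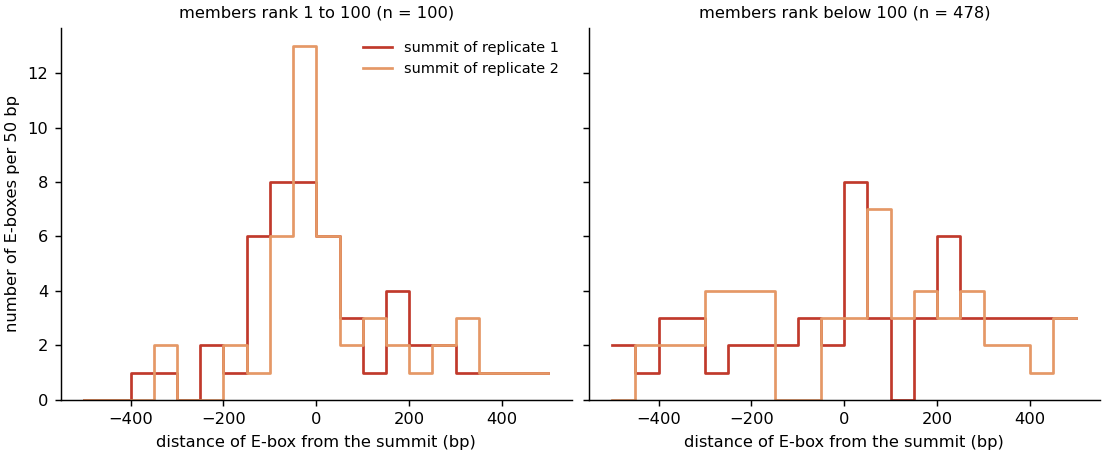
Number of E-boxes (CACGTG, either strand) per 50 bp at each distance (bp) from the summit of the strongest BMAL1 peak of replicate 1 (red) or replicate 2 (orange), for the 100 strongest members (left) and the 478 others (right). On the left the counts are highest just beside the summit, with 13 in 1 bin of 50 bp for replicate 2, and on the right they stay between 0 and 8 at all distances.

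The 10 members below rank 30 with CACGTG at both summits were a mixed set of genes. Nptn, which encodes the adhesion protein neuroplastin, gave 11.0 in replicate 1 and 3.56 in replicate 2. Mpc1, a subunit of the carrier that takes pyruvate into mitochondria, gave 9.42 and 3.18, with REV-ERBα at 2.29 and 6.57 and RNAP2 at 31.4 and 12.9. Bnip3, a mitophagy receptor, gave 2.48 and 4.95, with RNAP2 at 13.1 and 22.8. Aven, an inhibitor of apoptosis, gave 2.89 and 7.36.

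The rest of this set, like Bnip3 and Aven, had a value below 3 in at least one library. Ap5s1, an adaptor subunit, gave 8.19 and 2.98. Eef2k, the kinase that halts translation elongation, gave 1.89 and 4.53, and Fnip1, a partner of folliculin and AMPK, gave 2.48 and 1.87. Pop7, Fgf1 and Vav3 lay between 1.40 and 3.54 in each library. The summits of the replicates were at most 114 bp apart in all 10, with a median distance of 23.5 bp. The 10 were picked for CACGTG within 100 bp of both summits, which itself favours summits close together. The median of 249.5 bp over all members ranked below 100 was not picked in this way, so these distances cannot be compared.

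By gene list, 2.98% of protein-coding genes had a member. Of the 25 core clock genes and regulators, 12 did, namely Clock, Per1, Per2, Per3, Cry1, Nr1d1, Nr1d2, Ciart, Bhlhe40, Bhlhe41, Dbp and Tef. For 7 of them a member had CACGTG at both summits. The 17 members near these genes had a median BMAL1 value of 15.4 in replicate 1 and 8.25 in replicate 2 and a median width of 1011 bp. Of the 13 listed genes without a member, all had at least one peak of replicate 2 within 10 kb and 5 had one of replicate 1. In all, 35302 peaks of replicate 2 and 5879 of replicate 1 lay within 10 kb of a TSS. The share of all protein-coding genes with such a peak is not given, so these counts are not read as a result about the 13 genes. Arntl, which encodes BMAL1, had a replicate 2 peak of 3.61 and none of replicate 1. Cry2 had peaks of 3.19 and 1.87 but no member. The longer BMAL1 list held 177669 peaks and the shorter 34737.

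The sarcomere and Z-disc list had a share at least as high, with 17 of 32 genes. They were Acta1, Actn3, Myh4, Ttn, Neb, Tcap, Myoz1, Mybpc1, Mybpc2, Myl1, Mylk4, Tnnt3, Tnni2, Tnnc2, Tpm1, Tpm2 and Ckm. The 31 members near them had lower median BMAL1 values than those of the clock list, 3 in replicate 1 and 2.69 in replicate 2, and their summits were a median of 313 bp apart, against 43 bp. CACGTG was at both summits in none and at 1 in 2 of them, near Ckm and Mylk4. Over all members it was at both summits in 3.29% and at a summit in 7.27%, so these counts were near those shares. Of the 31, a REV-ERBα region overlapped 25 and an RNAP2 region 22. RNAP2 replicate 1 had a median of 60.9 over the 23 with a peak, where the clock list had 13.4 over 15. The part of RNAP2 signal and gene activity in these BMAL1 values was not tested. When a −log10 p of 3 was required in every list, the clock genes with a member numbered 11 and the sarcomere genes 7.

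**Figure D5:**
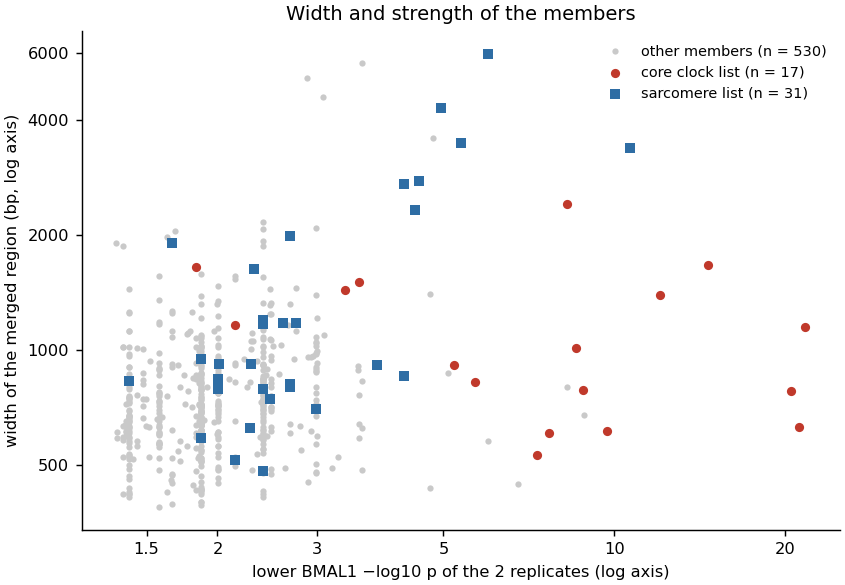
Width of each member (bp, log axis) against the lower of its BMAL1 −log10 p values in the 2 replicates (log axis), with the 17 members near core clock list genes as red circles, the 31 near sarcomere list genes as blue squares and the other 530 in grey. The clock members reach 21.7 and all but 1 are under 2000 bp wide, and 7 of the sarcomere members are wider than that.

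The remaining lists had at most 4 genes with a member each, where 2.98% of all protein-coding genes had one. The shares were 12.5% for excitation-contraction coupling, 15.4% for myogenic factors, 11.1% for glucose and 12.9% for lipid metabolism. They were 4% for protein turnover, 5% for clock output and 0% for nuclear receptors. Excitation-contraction coupling had 2 of 16 genes, Atp2a1 and Pvalb (parvalbumin, a calcium buffer), whose members gave 2.45 and 1.83, and 3.88 and 1.69. The myogenic factors had 2 of 13, Mef2a with 2.48 and 1.87 and Mef2c with 3.53 and 2.35. Glucose metabolism had 3 of 27, namely Eno3, Pfkm, muscle phosphofructokinase, with 3.19 and 1.87, and Aldoa, an aldolase, with 2.01 and 1.87. Lipid metabolism had 4 of 31. Plin4 and Plin5, which coat lipid droplets, shared 1 member of 2.98 and 2.40, the fatty acid transporter Cd36 gave 2.48 and 2.40, and Acsl1, which activates fatty acids, gave 2.30 and 2.98. None of these members of lipid genes had CACGTG at a summit or overlapped a REV-ERBα region. Over all members these shares were 7.27% and 12.1%, so that none among so few members is near them. Of the 31 lipid genes, 3 had a REV-ERBα region within 10 kb, and the share over all genes is not given. The protein turnover list had Bnip3 alone of 25, the clock output list Coq10b alone of 20, and the nuclear receptor list none of 16.

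The marker lists of other cell types had no member at any gene, with 8 for endothelium, 6 each for fibroblasts, leukocytes and adipocytes, 4 for satellite cells and 8 for hepatocytes, while 8 of 12 fibre markers had one. Over all protein-coding genes 2.98% had a member, so that none in a list of 4 to 8 genes is near that share. The lists are short and a member near a gene does not show that the gene is bound in that cell type.

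Some members lay in places where the position itself is uncertain. Soft-masked repeats held the summit of replicate 1 in 130 members (22.5%) and in 28% of the farther regions. Others lay near Gm21149 (4614 bp wide, 6.40 and 3.07), Zfp981 (3.08 and 4.43), Raet1d (2.995 and 2.98) and Prl2c3 (2.29 and 3.54). These genes belong to multigene families whose copies resemble each other. Multi-mapping reads had been removed, and whether the remaining reads came from another copy was not tested. These members were chosen after their values were seen. Chromosome X held 1 member, near Mid1 (4.01 and 2.56), of 2 BMAL1 regions.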

How the data were processed

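ChIP-seq reads were mapped by the authors with BWA (7.12) to mm10, duplicates and multi-mapping reads were removed, replicates were down-sampled, and peaks were called on each library against input DNA with MACS2 (2.1.1) at a p-value cutoff of 0.05, without pooling (versions per the submitters' processing notes). The deposited lists give, for each peak, the fold enrichment over input, −log10 p and −log10 q values at the summit, the summit position and a score, which is 10 times the −log10 p cut to a whole number. They give no read counts, so depth per peak is unknown. Peaks that overlapped by at least 1 bp were merged, GENCODE M21 gave TSSs, exons and UTRs, and sequence was read from GRCm38.p6 (Python 3.11.15, NumPy 2.4.6, SciPy 1.17.1, pysam 0.24.0). The steps were tested on simulated data. With 2 libraries per factor the smallest exact two-sided p is 0.333, so no test was run, and all comparisons are descriptions. The labels do not say whether replicates came from separate animals. Named were the nearest genes of the 30 members with the highest lower −log10 p, all list genes with a member, members with CACGTG at both summits or a pair of E-boxes, and 3 on either side of the distance limit. The values of 2 genes that enter the counts are not reported here. Members, gene lists and strength classes were chosen with earlier results of these data known. The input library has no peak list and was not analysed here.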

Additional observations from a re-analysis of the deposited data

How the results depend on the processing

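Counts were called unmoved within 1.5 times the main count, and shares within the 95% exact interval of the main share. The number of members fell from 578 to 271, 45 and 15 when all lists were cut at a −log10 p of 2, at one of 3 or at a −log10 q of 1.3, to 127 with all lists cut to 28881 peaks, to 382 with an overlap of 50% of the shorter peak, to 339 with summits within 300 bp, and to 94 and 346 with limits of 1000 and 5000 bp. It rose to 1187 with TSSs of all gene types. With a BMAL1 replicate left out it was 5879 to 35302. In the order p of 2, p of 3, q, equal lists, 1000 bp and 5000 bp, the REV-ERBα share was 19.2, 53.3, 40, 26.8, 25.5 and 16.2%, and the RNAP2 share 22.9, 66.7, 73.3, 33.1, 45.7 and 22.3%. With TSSs of all gene types they were 8.42 and 9.1%, and with summits within 300 bp the REV-ERBα share fell to 5.31%. Without one replicate they ranged from 0.493 to 16.3% and from 1.42 to 25.6%. In the order p of 2, p of 3, q, equal lists, summits within 300 bp and 1000 bp, the CACGTG share was 9.96, 31.1, 53.3, 15, 7.96 and 17% at the summit of replicate 1 and 8.12, 33.3, 66.7, 15.7, 7.37 and 16% at that of replicate 2, and 3.71% for replicate 1 with all gene types, 7.23% for replicate 2 with 5000 bp and 7.79% with a window of 200 bp. It was 2.86% in all near-TSS peaks of replicate 1 and 2.9% in those of replicate 2. The number of core clock genes with a member stayed between 8 and 13 of 25, except 17 to 25 with a BMAL1 replicate left out. That of sarcomere genes, added after the data were seen, was 17 of 32, 7 with a −log10 p of 3, 1 with the q cutoff, 8 with equal lists, 10 with summits within 300 bp, 5 with a limit of 1000 bp, and 23 to 29 with a BMAL1 replicate left out. The causes were not tested. No paired analysis was possible because no result came from a test.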
